A study of Mus musculus with 2 samples.

Results

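Mbnl2 tags were followed over 4 genes of quadriceps muscle, Hipk3, Phtf2, Hipk1 and Hipk2, out of 22380 protein-coding genes in the GENCODE annotation of mm9. Hipk3 and Phtf2 were chosen by their tag counts, since an earlier look at these tables showed many more tags in Mbnl1 KO than in WT muscle, and Hipk1 and Hipk2 were added as the nearest relatives of Hipk3. The gain over Hipk3 and Phtf2 is therefore a description and supports nothing by itself. HITS-CLIP crosslinks a protein to RNA in the tissue, trims the RNA with RNase A, pulls the protein down with an antibody and sequences the fragments that come along, called tags. Quadriceps of 3 WT and 3 Mbnl1 KO mice (Mbnl1-/-, an allele named for the loss of exon 3), aged 15 to 16 weeks, had been used, with the mouse monoclonal antibody 3B4 against Mbnl2. The labels give C57BL/6 as the strain of both groups, and neither group carries another allele or treatment in the labels. The authors' methods name a mixed background for their compound knockouts, which are not among these samples. Whole muscle was used, so fewer cells of a type and less RNA per cell cannot be told apart, and no RNA level was measured in these libraries.

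The 3 mice of a genotype are merged in 1 table, which leaves no spread between mice and no test between genotypes. The WT table held 343554 tags and the Mbnl1 KO table held 476543 tags, collapsed from 5176203 and 50329234 reads. Tags whose reference sequence was at least 70% 1 base, called single-base tags here, made up 44.0% of WT and 17.0% of Mbnl1 KO tags on assembled chromosomes. Since every value is scaled to all tags of its table, that difference enters each ratio. Muscle was checked by 8 markers of skeletal muscle fibres, among them Acta1, Ckm and Ttn. All 8 carried tags in both tables, 897 in WT and 3104 in Mbnl1 KO muscle together, while 4 liver, neural and glial markers carried 5 and 3. The summed Mbnl1 KO/WT ratio was 2.49 for the muscle fibre markers, 3.14 for 4 fibroblast markers, 1.70 for 3 endothelial markers, 3.34 for 3 Schwann cell markers and 0.848 for 3 leukocyte markers. The adipocyte markers had 1 WT and 13 Mbnl1 KO tags. The part of these cell types in the values below was not tested. The start-codon exon of Mbnl1, which may not be the deleted exon, had 5 WT and 2 Mbnl1 KO tags, and exon 3 in the numbering of the longest annotated coding transcript had 0 and 4. The Mbnl1 KO tags over either exon go against the label if that exon is the deleted one. The numbering does not settle which exon is deleted, so the genotype could not be checked.

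Hipk3, Hipk1 and Hipk2 encode homeodomain-interacting protein kinases, serine/threonine kinases that phosphorylate transcription factors and their co-regulators and take part in p53, Wnt and TGF-β signalling. Phtf2 and its paralog Phtf1 encode membrane proteins with several membrane-spanning stretches, named after a resemblance to homeodomain proteins that gave them the title of putative homeodomain transcription factors. Mbnl proteins are zinc finger RNA-binding proteins that prefer the 4-letter word YGCY, where Y is a pyrimidine. Bound in introns they influence the splicing of nearby exons, and bound in 3′ UTRs they are known to affect where an mRNA goes in the cell and how long it lasts.

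The sequences below are the 30 bases around the highest point of each group of overlapping tags with at least 10 tags in Hipk3, shown because these sites hold most of the tags of the gene. They lie in the 3′ UTR on the minus strand of mm9 and are written 5′ to 3′ in the direction of the transcript, with YGCY words (TGCT or TGCC, or with a first C in place of T, CGCT or CGCC) in capitals. The numbering follows the transcript.
Hipk3 site 1, chr2:104269696-104269725: aatTGCCttctaactagtgcaagacacgtc
Hipk3 site 2, chr2:104269475-104269504: ggctcttaatgttgttgtaatactctcagc
Hipk3 site 3, chr2:104269251-104269280: agcatgttTGCTatagctgaattcTGCTgt
Hipk3 site 4, chr2:104269089-104269118: tgaaactgcaatacaacctaagtttatttt
Hipk3 site 5, chr2:104268902-104268931: aatatttactgttgaagcttgaaaagatgt
Hipk3 site 6, chr2:104268795-104268824: ttgtagtactcgttttTGCTtgttggtggt
Hipk3 site 7, chr2:104268590-104268619: gctactttttgcatagacctcaagtatatt
Hipk3 site 8, chr2:104268468-104268497: gtatcatagataagcTGCTatataacgatt
Hipk3 site 9, chr2:104268357-104268386: agatagaagctggggttttgattttttttt
Hipk3 site 10, chr2:104268214-104268243: gtttgTGCTcatcactgcatataaaaactt
Hipk3 site 11, chr2:104268129-104268158: gagaaagctgtatcttgcaggcttgactta
Hipk3 site 12, chr2:104267048-104267077: acTGCTgattttaaacttggcttgtgttct
Hipk3 site 13, chr2:104266899-104266928: ttctttggtttgttttTGCTttgacttcta

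In Phtf2 the same rule gave 3 sites in the 3′ UTR and 1 in an intron, also on the minus strand. The intronic site is a run of C, and all 24 tags there were single-base tags on 1 read each.
Phtf2 site 1, intron, chr5:20349514-20349543: ccccccccccccaccccacccccccccccc
Phtf2 site 2, 3′ UTR, chr5:20265811-20265840: tttaatctggtgcacccctcccctggctcc
Phtf2 site 3, 3′ UTR, chr5:20264880-20264909: tTGCTttaggttgcagctgtgtttaacgta
Phtf2 site 4, 3′ UTR, chr5:20264640-20264669: tggcaaaTGCTgtgTGCTgtttcttTGCCg

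Hipk1 and Hipk2 had no group of 10 overlapping tags. The highest point of Hipk1, in its 3′ UTR and with 0 YGCY words, is not shown. The highest points of Hipk2, on the minus strand and chosen after the values were seen, are shown.
Hipk2 3′ UTR, chr6:38644845-38644874: tttaaccTGCCtcgcatctgacgtgtagca
Hipk2 downstream, chr6:38638925-38638954: cccatttaaCGCTggctttcttccatgggt

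Hipk3 (ENSMUSG00000027177.8, minus strand, chr2:104266638-104334603) carried 62 WT and 465 Mbnl1 KO tags over its body. Scaled to the tables, this is 180 and 976 tags per 1000000, an Mbnl1 KO/WT ratio of 5.41. The exact Clopper-Pearson 95% interval of this ratio ran from 4.14 to 7.17. Such intervals cover counting error only and compare these libraries, not the genotypes. Other ways of counting moved the ratio of Hipk3, to 1.20 with reads in place of tags and 12.5 with tags of at least 30 nt. By number of Mbnl1 KO tags Hipk3 ranked 4th of 3888 genes with at least 20 tags in both tables together, and by number of WT tags 74th.

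Phtf2 (ENSMUSG00000039987.9, minus strand, chr5:20264481-20387942) carried 29 WT and 199 Mbnl1 KO tags, which are 84.4 and 418 per 1000000. Its ratio was 4.95 (interval 3.34 to 7.58), which overlaps that of Hipk3. By the same 2 other counts the ratio of Phtf2 was 1.24 and 21.8. Phtf2 stood 42nd of the same 3888 genes by Mbnl1 KO tags and 431st by WT tags.

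Hipk1 (ENSMUSG00000008730.10, minus strand, chr3:103543738-103595486) carried 17 WT and 65 Mbnl1 KO tags, 49.5 and 136 per 1000000. The ratio was 2.76 (1.60 to 5.02), and the interval included 1 with tags of at least 2 reads (1.34) and with scaling to sense-strand tags of coding genes (1.71, 0.990 to 3.11). With reads in place of tags, a setting added once values were known, the Hipk1 ratio turned to 0.303. Hipk2 (ENSMUSG00000061436.8, minus strand, chr6:38644389-38826189) carried 22 WT and 37 Mbnl1 KO tags, 64.0 and 77.6 per 1000000. Its ratio of 1.21 had an interval from 0.697 to 2.16, so a difference between the tables was not detectable at this depth. Scaled to sense-strand tags of coding genes it was 0.752.

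Among the kinases, WT tags per 1000000 were highest at Hipk3, then Hipk2 and Hipk1, and the last pair had overlapping counting intervals (40.1 to 97.0 and 28.8 to 79.2). In Mbnl1 KO muscle the order was Hipk3, Hipk1 and Hipk2, with the interval of Hipk1 from 105 to 174 and that of Hipk2 from 54.7 to 107, which overlap at their ends. These are tags per gene and do not allow for gene length.

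A ratio above 1 was common in these tables. Over gene bodies, 41.6% of the 3888 genes had a ratio of at least 2, 38.6% had an interval above 1 and 3.83% had an interval below 1. Among the members, 3 of 4 had a ratio of at least 2 and an interval above 1, and these are the contrasts on which the pair was chosen. The median gene had a ratio of 1.75 with quartiles of 1.12 and 2.68, a shift of 0.80 on the log2 scale. Relative to that median gene, a scaling added once values were known, the ratio was 3.10 at Hipk3, 2.83 at Phtf2, 1.58 at Hipk1 and 0.695 at Hipk2, with intervals that included 1 at Hipk1 and Hipk2. By ratio, Hipk3 was 194th and Phtf2 232nd of the 3888, Hipk1 was 918th and Hipk2 2758th. Among the 392 genes with at least 100 tags, where the median ratio was 2.27, Hipk3 and Phtf2 were 9th and 10th.

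**Figure D1:**
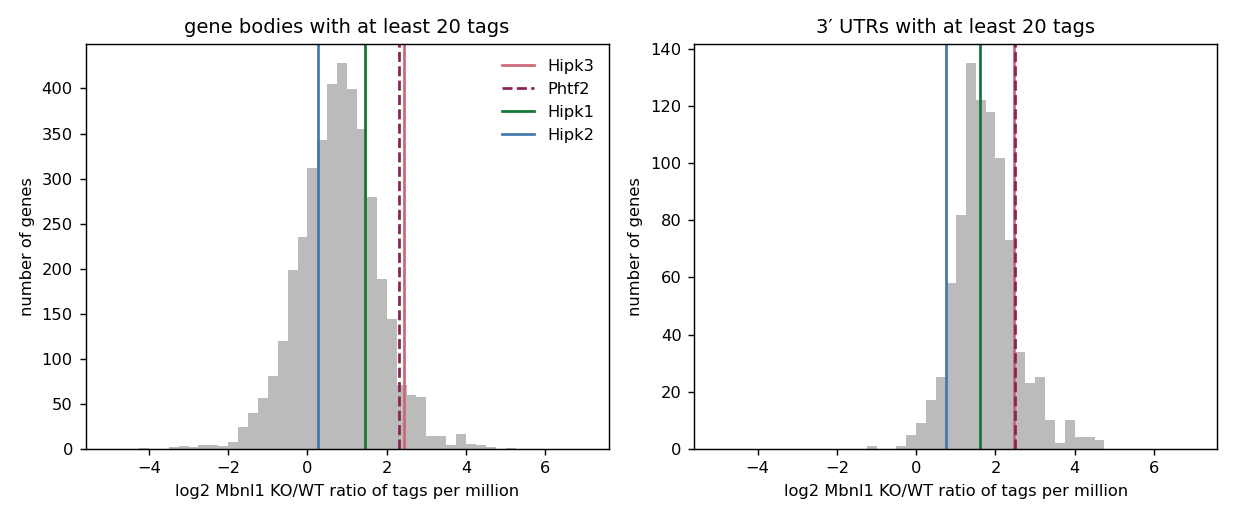
Histograms of the log2 Mbnl1 KO/WT ratio of tags per 1000000 over gene bodies (left, 3888 genes) and 3′ UTRs (right, 867), each with at least 20 tags, and with vertical lines at the 4 members. Left out are 3 gene bodies and 4 3′ UTRs with 0 WT tags. Hipk3 and Phtf2 lie in the right part of both histograms, which are themselves shifted above 0.

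Where the tags of a gene lay was not named in the choice, but it is not independent of the gain, since the median ratio was 3.24 over 3′ UTRs and 1.30 over introns. Over the gene and the 10 kb past its end, the 3′ UTR held 92.1% of the WT tags of Hipk3 (58 of 63, interval 82.4 to 97.4) and 95.3% of those in Mbnl1 KO muscle (447 of 469, 93.0 to 97.0). At Phtf2 the 3′ UTR held 65.5% (19 of 29, 45.7 to 82.1) and 74.4% (148 of 199, 67.7 to 80.3). Hipk1 had 58.8% in WT (10 of 17, 32.9 to 81.6) and 60.9% in Mbnl1 KO muscle (42 of 69, 48.4 to 72.4). In contrast, the 3′ UTR of Hipk2 held 18.2% (6 of 33, 6.98 to 35.5) and 18.4% (14 of 76, 10.5 to 28.97). At each of the 4 genes the shares of the genotypes had overlapping intervals. In both WT and Mbnl1 KO muscle the interval of Hipk3 did not meet that of any other member. For the 4 genes together the share was 65.5% in WT (93 of 142, 57.1 to 73.3) and 80.1% in Mbnl1 KO muscle (651 of 813, 77.2 to 82.8). The pooled share weighs the genes by their tags. Hipk3, chosen on its gain, made up 63 of the 142 WT tags but 469 of the 813 Mbnl1 KO tags. These pooled intervals do not meet, but they take the tags of the 4 genes as 1 sample. They therefore show no change of share within a gene. Over all protein-coding genes the 3′ UTR held 13.5% of WT and 25.6% of Mbnl1 KO tags, and introns held 62.1% and 49.8%. The intervals of Hipk3, Phtf2 and Hipk1 lay above these shares in both tables, and those of Hipk2 included them. For the pair chosen on its gain this is a description. The Hipk1 share rests on a 3′ UTR of 5736 nt, of which a part is coding in other annotated transcripts. Tags in that part counted as 3′ UTR. The first 200 nt of its last piece held 2 WT and 3 Mbnl1 KO tags, and the next 200 nt held 2 and 5. The share without coding bases was not tested.

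**Figure D2:**
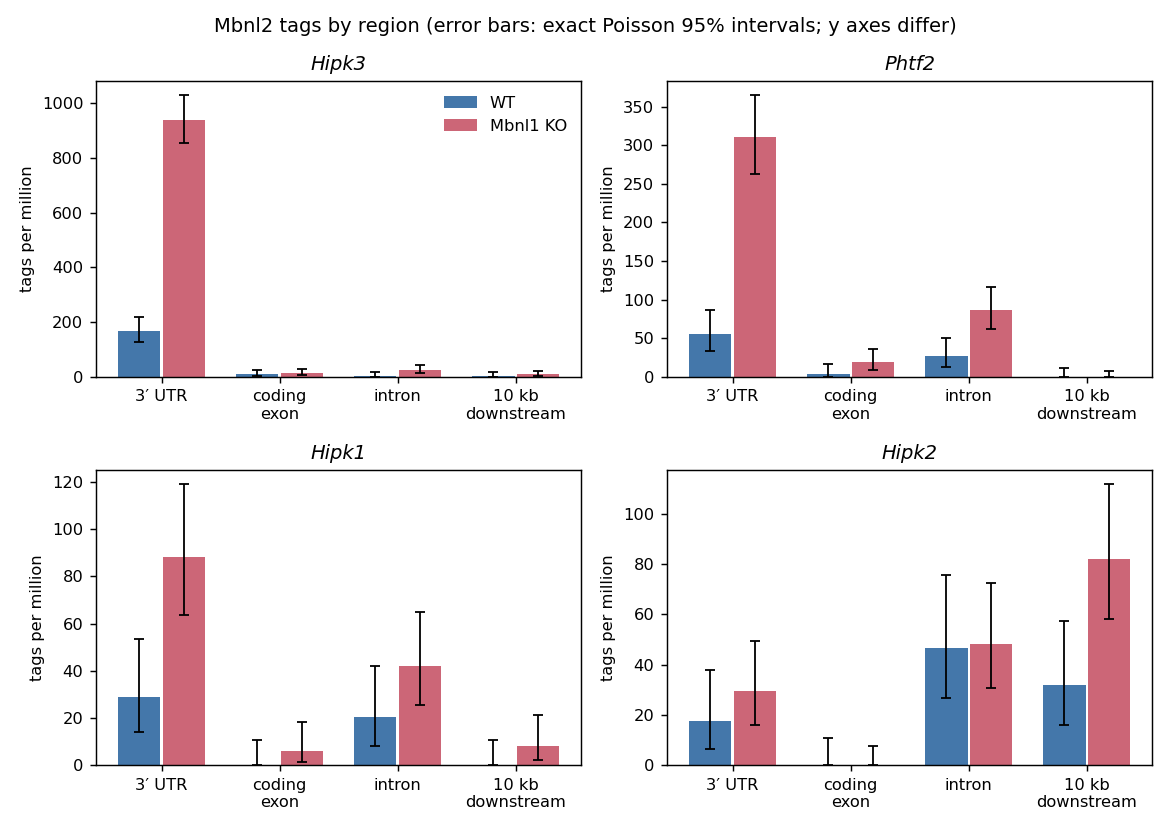
Mbnl2 tags per 1000000 (y axis, different in each panel) in the 3′ UTR, coding exons, introns and the 10 kb past the annotated end of Hipk3, Phtf2, Hipk1 and Hipk2, for WT and Mbnl1 KO muscle. Bars are the value of 1 merged table and error bars are exact Poisson 95% intervals of its tags. At Hipk3, Phtf2 and Hipk1 the bar of the 3′ UTR stands above the other regions, and at Hipk2 that past the gene end does in Mbnl1 KO muscle.

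The 3′ UTR of Hipk3 (chr2:104266638-104270014, 3377 nt, the stop codon included) had 58 WT and 447 Mbnl1 KO tags, 169 (interval 128 to 218) and 938 (853 to 1029) per 1000000. Its ratio was 5.56 (4.22 to 7.44). The tags had 50 distinct start and end positions in WT and 297 in Mbnl1 KO muscle, and the intervals take every tag as independent. With tags of the same 5′ end counted once the ratio was 4.09 (3.00 to 5.68). Per kb of 3′ UTR, 50.0 and 278 tags per 1000000 were counted. With 447 tags it held more Mbnl1 KO tags than any of the other 3′ UTRs among 867 with at least 20 tags, and it ranked 3rd by WT tags. Per kb it ranked 29th in Mbnl1 KO and 67th in WT muscle.

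The 3′ UTR of Phtf2 (chr5:20264481-20266875, 2395 nt) had 19 WT and 148 Mbnl1 KO tags, which are 55.3 and 311 per 1000000, and a ratio of 5.62 (3.47 to 9.59). Per kb this came to 23.1 and 130 tags per 1000000, below the levels of Hipk3 in each genotype. It ranked 30th of the 867 by Mbnl1 KO tags and 93rd by WT tags. Its tags had 19 distinct start and end positions in WT and 102 in Mbnl1 KO muscle.

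Most 3′ UTRs were higher in the Mbnl1 KO table, with 86.6% of the 867 at a ratio of at least 2, 77.7% with an interval above 1 and 0.00% with an interval below 1. The median ratio was 3.24 (quartiles 2.45 and 4.48). Both members lay above the upper quartile, at 125th for Hipk3 and 122nd for Phtf2, with 14.4% and 14.1% of 3′ UTRs at or above them. This position depended on the counting. With tags of at least 30 nt 40.1% of 3′ UTRs were at or above Hipk3, and with reads in place of tags 75.2% were, and 34.8% were at or above Phtf2. Divided by the median 3′ UTR, which was tried only once values were known, the ratio was 1.71 at Hipk3 and 1.73 at Phtf2. Among the 91 3′ UTRs with at least 100 tags, whose median was 3.16, Phtf2 was 3rd and Hipk3 4th.

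The 3′ UTR of Hipk1 had 10 WT and 42 Mbnl1 KO tags, 29.1 and 88.1 per 1000000, with a ratio of 3.03 (1.49 to 6.77). This is close to the median 3′ UTR, and the gene ranked 493rd of 867, with bases that are coding in other transcripts counted in. In its last piece (chr3:103543738-103548359, 4622 nt), of which a part is coding in other annotated transcripts, 9 WT and 42 Mbnl1 KO tags gave 5.67 and 19.1 tags per 1000000 per kb. The 3′ UTR of Hipk2 had 6 WT and 14 Mbnl1 KO tags, 17.5 and 29.4 per 1000000, with a ratio of 1.68 (0.607 to 5.34). It ranked 796th of 867, and its last piece (chr6:38644389-38648136, 3748 nt) had 4.66 and 7.84 tags per 1000000 per kb. Per kb, Hipk3 and Phtf2 therefore stood above both paralogs in each genotype.

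Tags covered the 3′ UTR of Hipk3 broadly. In WT muscle 27.7% of its bases lay under a tag, and in Mbnl1 KO muscle 57.5% did. The middle tag lay 1098.5 nt after the start of the 3′ UTR in WT and 1101 nt after it in Mbnl1 KO muscle. The highest overlap was 6 tags at 1088 nt in WT and 23 tags at 1095 nt in Mbnl1 KO muscle, within the group of tags around site 5. From 201 to 2000 nt there were 49 WT and 371 Mbnl1 KO tags. From 2001 to 2800 nt there were 2 and 6, and from 2801 nt to the end 7 and 63. The stretch in between was thus poor in tags in both tables, and these limits were set after the profile was seen. In 4 equal parts of the 3′ UTR, in order, the ratio was 5.54, 5.97, 3.09 and 6.59, with overlapping intervals. Across 17 bins of 200 nt the tags of the genotypes had a Spearman correlation of 0.88, given as a description of 1 table per genotype.

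The 13 groups of overlapping tags printed above held 471 of the 532 tags counted at Hipk3 with its 10 kb downstream, or 88.5%. The counts below are of the whole group of tags around each site, which reaches past the 30 bases. The group of site 5 had the most tags, 11 in WT and 85 in Mbnl1 KO muscle (ratio 5.57, interval 2.96 to 11.6). Site 3, with a TGCT word at either side of the summit, had 5 and 62 (8.94, 3.63 to 28.5). The group of site 2 had 9 and 56 tags, with 0 WT and 19 Mbnl1 KO tags over its summit. That of site 13 near the end of the 3′ UTR had 5 and 47, and that of site 7 had 6 and 42. In the group of site 6 there were 0 WT tags and 15 in Mbnl1 KO muscle, where 0 tags allow up to 8.73 tags per 1000000 (3 tags, a one-sided limit at 95%), and the interval of the ratio began at 2.59. The lowest ratio among the 13 was 2.70 at site 11 (4 and 15 tags, 0.861 to 11.2). The interval of every one of these sites included the ratio of 5.56 of the whole 3′ UTR, so no site separated from the rest at this depth. In addition, the annotated hairpin of mmu-mir-1902 (chr2:104269018-104269097) lies inside this 3′ UTR. It was overlapped by 2 WT and 25 Mbnl1 KO tags, of which 0 and 10 lay wholly within it. Tags of the hairpin and of the 3′ UTR cannot be told apart.

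At Phtf2 the tags gathered near the end of the 3′ UTR. Its last 600 nt held 13 of 19 WT tags (68.4%) and 113 of 148 Mbnl1 KO tags (76.4%). Tags covered 11.8% of the bases in WT and 29.6% in Mbnl1 KO muscle. The middle tag was at 1975 and 2027 nt. Counted over the whole group of tags, site 3 had 8 WT and 84 Mbnl1 KO tags (ratio 7.57, 3.67 to 18.1) and site 4, with 3 YGCY words in its 30 bases, had 5 and 26 (3.75, 1.42 to 12.5). Site 2, with 0 such words, had 2 and 15. The highest overlap was 5 tags in WT, at site 4, and 27 tags in Mbnl1 KO muscle, at site 3. Across 12 bins the genotypes had a Spearman correlation of 0.90, again a description. The first of 4 equal parts of the 3′ UTR held 0 WT and 2 Mbnl1 KO tags.

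On the last 3′ UTR pieces of the paralogs tags were sparse. They covered 4.54% of the bases of Hipk1 in WT and 12.7% in Mbnl1 KO muscle, at most 2 and 6 tags deep. At Hipk2 3.09% and 5.12% were covered, at most 2 and 3 tags deep.

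**Figure D3:**
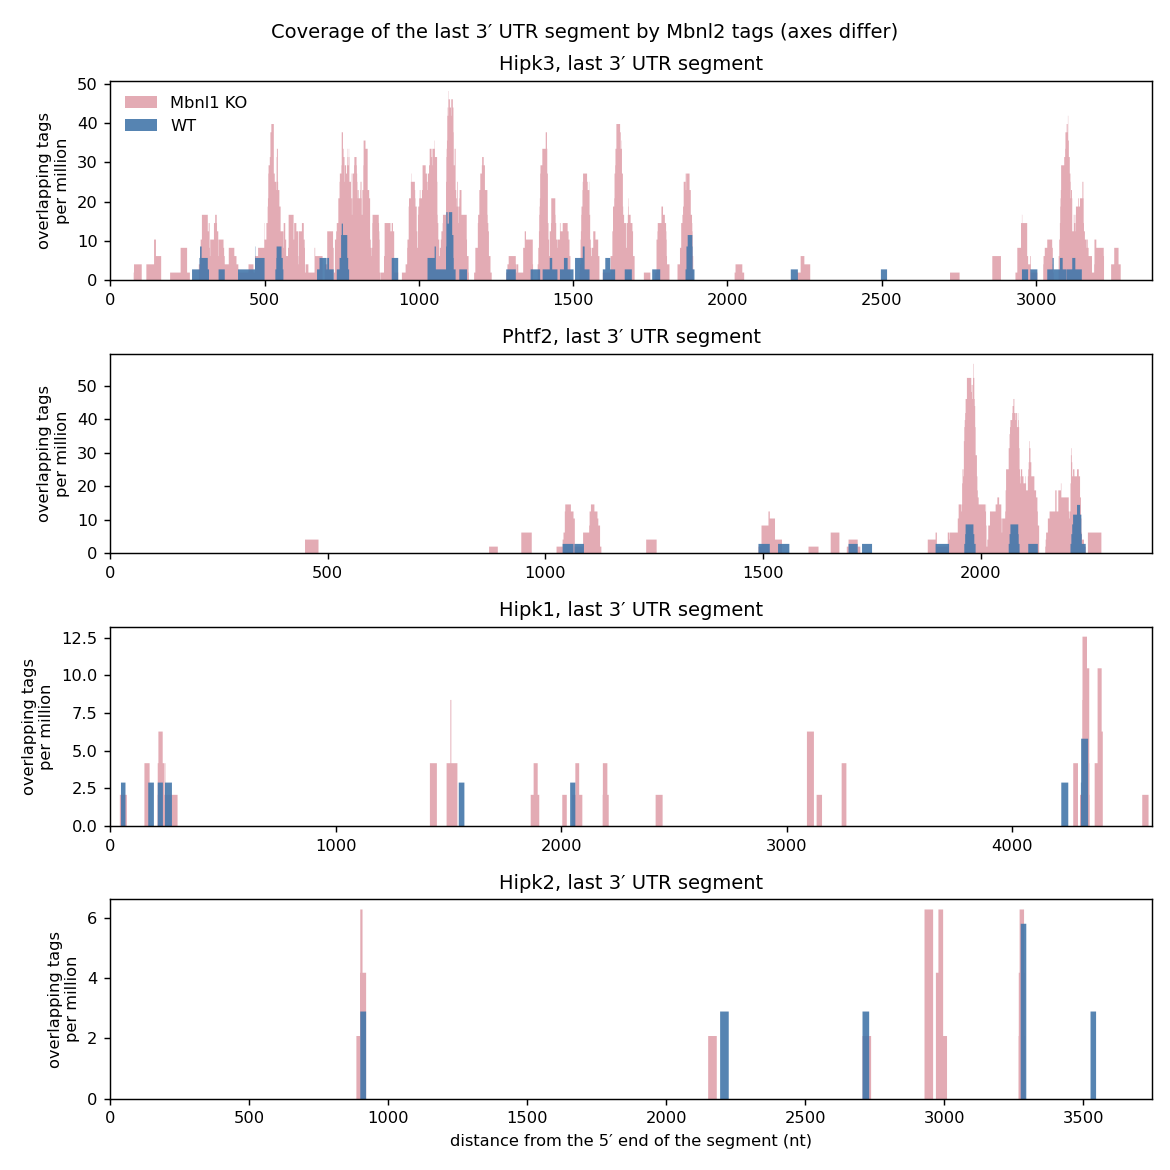
Overlapping Mbnl2 tags per 1000000 (y axis) along the last 3′ UTR piece of each gene, by distance in nt from its 5′ end (x axis), with WT in front of Mbnl1 KO. Axes differ between panels. The tags of Hipk3 spread from about the start to 2000 nt and return near the end, those of Phtf2 lie mostly in the last 600 nt, and Hipk1 and Hipk2 show single small groups.

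YGCY words were counted on the transcript strand, with overlapping words counted separately. The 3′ UTR of Hipk3 has 40 words (11.8 per kb), that of Phtf2 29 (12.1), and the last pieces of Hipk1 and Hipk2 have 61 (13.2) and 44 (11.7). The median of 18217 annotated 3′ UTRs of at least 100 nt was 12.3 per kb (quartiles 8.93 and 16.0), so the members were ordinary in this respect. Of all windows of 30 bases in these 3′ UTRs, 28.2% hold a word, and 25.4% of those in Hipk3, 27.5% in Phtf2, 28.8% in Hipk1 and 26.1% in Hipk2 do. When the window was centred on a tag, the share was 36.04% at Hipk3 (505 tags), 59.9% at Phtf2 (167 tags), 62.7% at Hipk1 (51 tags) and 70% at Hipk2 (20 tags). Tags of 1 group share a window, so these shares carry no interval. At Hipk3 the share was 29.3% for WT and 36.9% for Mbnl1 KO tags, and at Phtf2 78.9% and 57.4%. It was 88.9% (of 9 tags) and 57.1% (of 42) at Hipk1, and 66.7% (of 6) and 71.4% (of 14) at Hipk2. The 3′ UTR with the most Mbnl1 KO tags was therefore the one with the lowest such share of the 4, and sites 2, 4, 5, 7, 9 and 11 of Hipk3 hold 0 of these words.

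Outside the 3′ UTR, Hipk3 had few tags. Its coding exons had 3 WT and 6 Mbnl1 KO tags (ratio 1.44, 0.308 to 8.91), of which 1 and 5 were in the large exon 2 (chr2:104310906-104312004, 1099 nt). Its introns had 1 and 12 (8.65, 1.28 to 370), and the 10 kb past its end had 1 and 4. No tag was found in the 5′ UTR of any member. The 3′ UTR and these regions can hardly be compared at such counts.

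At Phtf2, the coding exons had 1 WT and 9 Mbnl1 KO tags (6.49, 0.899 to 284), the introns 9 and 41 (3.28, 1.57 to 7.69) and the 10 kb past the end 0 and 0. Of the 50 intronic tags 25 were single-base tags, and 5 WT and 20 Mbnl1 KO tags were not. Across 2477 genes with at least 20 intronic tags, 22.0% had a ratio of at least 2, 19.7% had an interval above 1, and the median was 1.30. For Hipk1 introns the counts were 7 and 20 (2.06, 0.837 to 5.77) and for Hipk2 introns 16 and 23 (1.04, 0.524 to 2.10). Leaving out single-base tags, the Hipk2 introns kept 6 WT and 18 Mbnl1 KO tags. Among 141 genes with at least 20 tags in coding exons, 83.0% had a ratio of at least 2 and 77.3% an interval above 1. Coding exons of Hipk1 had 0 and 3 tags and those of Hipk2 0 and 0, where a count of 0 allows up to 3 tags by the same one-sided limit.

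Hipk2 carried more tags past its annotated end than in its 3′ UTR. In the 10 kb downstream (chr6:38634389-38644388), where no other gene is annotated on the strand, 11 WT and 39 Mbnl1 KO tags were counted. This is 32.0 and 81.8 per 1000000 and a ratio of 2.56 (1.28 to 5.53). The tags lay 1293 to 6673 nt past the annotated end and 32 of the 50 rested on at least 2 reads. None of them was a single-base tag. A window of 30 bases around the tag held a YGCY word for 48.0% of them (24 of 50), against 33.1% of all windows there. Across 118 genes with at least 20 tags in such a region free of other genes, 50.8% had a ratio of at least 2, 44.9% had an interval above 1, and the median was 2.09. Downstream tags were 33.3% of all tags counted at Hipk2 in WT (17.96 to 51.8) and 51.3% in Mbnl1 KO muscle (39.6 to 63.0), against 17.8% and 14.5% over all coding genes. Whether this stretch belongs to a longer Hipk2 3′ UTR was not tested. The 4 Mbnl1 KO tags downstream of Hipk1 lay over other genes of the same strand.

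**Figure D4:**
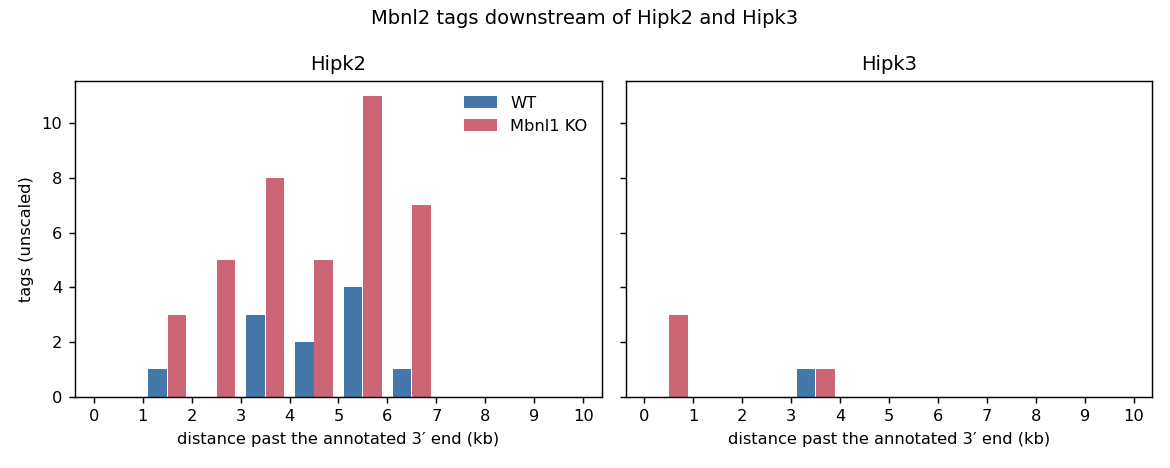
Unscaled Mbnl2 tags per kb (y axis) in the 10 kb past the annotated 3′ end of Hipk2 (left) and Hipk3 (right), for WT and Mbnl1 KO muscle, by distance in kb (x axis). Those of Hipk2 (11 WT, 39 Mbnl1 KO) lie between 1 and 7 kb past the end, and Hipk3 has 1 and 4.

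The tags of the 3′ UTRs of Hipk3 and Phtf2 differed from their tables in length. The median tag of Hipk3 was 23 nt in WT and 31 nt in Mbnl1 KO muscle, and 29.3% and 51.0% were at least 30 nt long. At Phtf2 the medians were 22 and 28 nt, with 5.26% and 48.6% at 30 nt or more. Hipk1, with 10 and 42 tags, had medians of 25 and 31 nt and shares of 40% and 54.8%. Hipk2, with 6 and 14 tags, had 20.5 and 26 nt and 16.7% and 42.9%. Both tables had a median of 24 nt, and the share of tags of at least 30 nt went the other way, 45.0% in WT and 32.7% in Mbnl1 KO muscle. These table values cover tags of every region, and tag lengths over all 3′ UTRs were not counted. Among tags of at least 30 nt the Hipk3 3′ UTR ratio was 13.3, while the median 3′ UTR stood at 10.7. That of Phtf2 was 71.4, on 1 WT and 72 Mbnl1 KO tags. Low and high RNase digests are not told apart in the tables, and their part in the tag lengths was not tested.

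Tags resting on 1 read were 36.2% of WT and 36.5% of Mbnl1 KO tags in the 3′ UTR of Hipk3 and 31.6% and 33.1% in that of Phtf2, against 79.0% and 59.5% in the tables. They were 20% and 38.1% at Hipk1 and 16.7% and 57.1% at Hipk2, on few tags. Single-base tags are part of the table shares, while the 3′ UTRs of the 4 members held 0 of them. The 1-read share of other 3′ UTRs was not counted. Restricted to tags of at least 2 reads, the 3′ UTR of Hipk3 had 37 WT and 284 Mbnl1 KO tags (ratio 2.87) and that of Phtf2 13 and 99 (2.84). Counting reads in place of tags, tried only once values were known, gave 6782 WT and 76041 Mbnl1 KO reads at the Hipk3 3′ UTR. This is 1310 and 1511 per 1000000 reads, a ratio of 1.15, below the 5.56 of its tags. A single 20 nt tag held 2792 of the WT reads there, and the largest tag in Mbnl1 KO muscle held 8470. The Phtf2 3′ UTR had 658 and 38105 reads, a ratio of 5.96. In its introns 2 WT tags, at chr5:20358330-20358350 and chr5:20321772-20321791, held 3092 and 1527 reads. In Mbnl1 KO muscle 1 tag (chr5:20341846-20341868) held 18755 reads, and no WT tag was found there. The 3′ UTRs of Hipk1 and Hipk2 had fewer reads per 1000000 in Mbnl1 KO than in WT muscle, at ratios of 0.122 and 0.131, with WT reads on few tags.

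**Figure D5:**
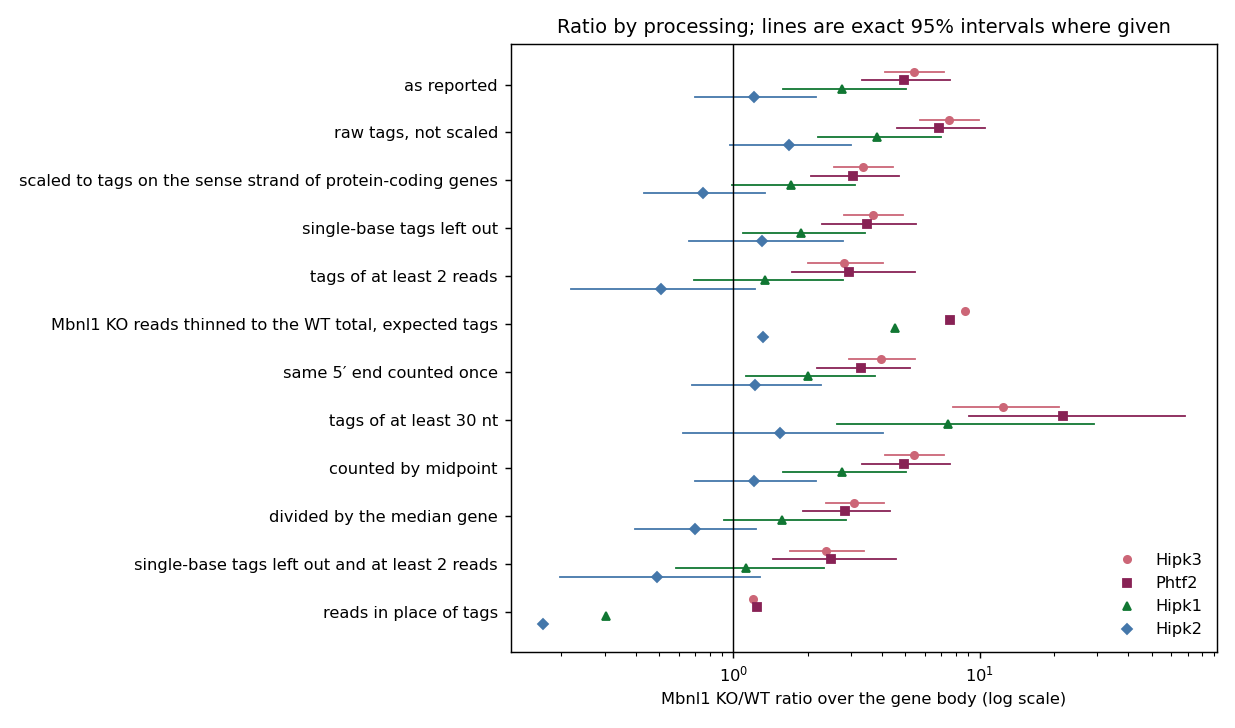
Mbnl1 KO/WT ratio over the body of the 4 genes (x axis, log scale) under each way of counting or scaling (y axis). Points are ratios and lines exact 95% intervals of the counts, where given. Hipk3 and Phtf2 lie above 1 in every row, at 1.20 and 1.24 with reads in place of tags, whereas Hipk1 and Hipk2 cross 1.

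On the opposite strand, Hipk3 had 21 tags in WT and 6 in Mbnl1 KO muscle (ratio 0.206, 0.0680 to 0.528), and 19 and 3 of them were single-base tags. Phtf2 had 20 and 3 (0.108, 0.0206 to 0.365), of which 15 and 0 were single-base tags. Hipk1 had 10 and 3 (0.216, 0.0382 to 0.840), of which 6 and 0 were, and Hipk2 had 8 and 5 (0.451, 0.116 to 1.56), of which 0 and 2 were. Leaving those out, the antisense counts were 2 and 3 at Hipk3, 5 and 3 at Phtf2, 4 and 3 at Hipk1 and 8 and 3 at Hipk2. No antisense counts over all genes were made to set beside these.

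Of the wider kinase family and the Phtf2 paralog, 4 of 10 genes had at least 10 tags, and 2 of these, Hipk3 and Hipk1, had a ratio of at least 2, with Hipk3 chosen for its gain. Of all genes with at least 10 tags, 39.3% had such a ratio. The median of the 4 was 2.15. Dyrk1a, a related kinase, had 29 WT and 62 Mbnl1 KO tags (1.54, 0.977 to 2.49). The 6 remaining genes, among them Hipk4 with 1 and 1 tags and Phtf1 with 1 and 4, were too sparse to compare.

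Of 34 known partners and substrates of the HIPK kinases, 22 had at least 10 tags. Their median ratio was 1.68, with 7 at a ratio of at least 2, 8 with an interval above 1, 0 with one below 1 and 6 with a ratio under 1. For the 18 with at least 20 tags the median was 1.80, close to the 1.75 of all gene bodies, and the same 7 and 8 are to be set beside the 41.6% and 38.6% there. Mdm2, the E3 ligase of p53, had 2 WT and 20 Mbnl1 KO tags (7.21, 1.75 to 63.6). The corepressor gene Ctbp1 had 3 and 29 (6.97, 2.16 to 35.8), and its relative Ctbp2 had 18 and 45 (1.80, 1.02 to 3.31). In the Wnt pathway, Ctnnb1, which encodes β-catenin, had 25 and 111 (3.20, 2.06 to 5.16), and the transcription factor gene Tcf7l2 had 20 and 90 (3.24, 1.98 to 5.56). Its relatives Tcf7l1 (22 and 25, ratio 0.819) and Lef1 (9 and 10, 0.801) had ratios below 1 with intervals that included 1. The remaining intervals above 1 were those of Ep300, an acetyltransferase (2.57), Tle4, a Groucho corepressor (2.23), and Ski, a repressor of Smad signalling (2.03). Intervals of the others included 1, among them ratios of 1.92 at Smad2, 1.80 at Smad1 and Tle1, 1.55 at Smad3, 1.53 at Crebbp, 1.44 at Nlk, 1.38 at Runx1, 1.26 at Wsb1, 0.918 at Map3k7, 0.881 at Pml and 0.649 at Siah1a.

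The genes most like each member in where their tags lay were sought among 1998 genes with at least 40 tags, by the sum of absolute differences of 10 shares (5 regions in each table). This measure holds the gain itself and is a description. Nearest to Hipk3 were Prdx3, a mitochondrial peroxiredoxin (6 WT and 51 Mbnl1 KO tags, distance 0.0482), Epm2aip1 (8 and 56, 0.0824) and Rhoq, a small GTPase (41 and 274, 0.0868), against a median distance of 1.70. Nearest to Phtf2 were Sep15, a selenoprotein (10 and 61, 0.0758), Pdlim3, an actin-associated LIM protein of muscle (29 and 165, 0.0912), and St3gal6, a sialyltransferase (8 and 62, 0.0965), against a median of 1.31. Phtf2 was 192nd from Hipk3 at 0.455.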

How the data were processed

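Mbnl2 HITS-CLIP tags of quadriceps muscle were analysed, with the 3 mice of a genotype in 1 table. The authors had quality-filtered the reads, aligned them to mm9 with BWA (version not given in the sources used here), dropped short sequences and potential PCR duplicates, and pooled the mice. Their methods state that sequences below 20 nt were discarded, while the shortest tag in either table was 18 nt. Every row was taken as 1 tag, and the deposited count beside it is its raw number of collapsed reads.

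Tags overlapping a region of the mm9 GENCODE annotation on the gene strand were counted and divided by the tags of the table (Python 3.11.15 with scipy 1.17.1, pandas 2.3.3, numpy 2.4.6 and matplotlib 3.10.9). For shares, a tag was given to 1 region in the order 3′ UTR, 5′ UTR, coding exon, other exon, intron, 10 kb downstream. UTRs came from protein-coding transcripts and include the stop codon. Bases that are coding in 1 transcript and 3′ UTR in another counted as 3′ UTR. Ratios have exact Clopper-Pearson 95% intervals, and levels exact Poisson ones. With 1 table per genotype no test and no p-value was computed. Counting was tested on simulated tags. Sequences were read from the mm9 genome.

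The members and gene lists were chosen with earlier results of these data known. Named genes are the members, list genes with at least 10 tags and the 3 genes most like Hipk3 and Phtf2. Hipk4 and Phtf1, below that minimum, were named after their values were seen. Groups of overlapping tags, pooled over genotypes, with at least 10 tags are described. The depth of 343554 WT tags sets the width of most intervals. The alternatives tried are given in the closing section. The values of 1 list gene and 1 sequence are not reported here.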

Additional observations from a re-analysis of the deposited data

How the results depend on the processing

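Counting by midpoint moved none of the ratios beyond its interval. A minimum of 10 tags per gene gave 39.3% of genes at a ratio of at least 2, and 3′ UTRs that include nonsense-mediated decay transcripts, added after seeing the data, gave 5.52 at Phtf2. Unscaled tags gave Hipk3 ratios of 7.50 (gene body) and 7.71 (3′ UTR), and 62.9% of genes at a ratio of at least 2. Scaling to sense-strand tags of protein-coding genes gave 3.35 and 3.45 at Hipk3 and 3.07 and 3.48 at Phtf2. The same scaling gave 1.71 at Hipk1, 0.752 at Hipk2 and 16.6% of genes. With single-base tags left out, Hipk3 had 3.67 and 3.79 and the 3′ UTR share of the members was 83.0%. Tags of at least 2 reads gave 2.82 and 2.87 at Hipk3, 2.96 and 2.84 at Phtf2, 1.34 at Hipk1, 0.509 at Hipk2 and a share of 82.8%. Mbnl1 KO reads thinned to the total of WT gave 8.69 and 8.90 at Hipk3, 7.60 and 9.21 at Phtf2 and 4.55 at Hipk1. Counting tags with the same 5′ end once gave 3.98 and 4.09 at Hipk3 and 3.31 and 3.67 at Phtf2. Tags of at least 30 nt gave 12.5 and 13.3 at Hipk3, 21.8 and 71.4 at Phtf2, where the 3′ UTR kept 1 WT tag, 7.44 at Hipk1 and 66.8% of genes. The next 3 settings were added after seeing the data. Dividing by the median gene gave 3.10 and 3.18 at Hipk3, 2.83 and 3.22 at Phtf2, 1.58 at Hipk1 and 0.695 at Hipk2. Leaving out single-base tags and requiring at least 2 reads gave 2.37 and 2.41 at Hipk3, 2.49 and 2.39 at Phtf2, 1.12 at Hipk1 and 0.487 at Hipk2. Reads in place of tags gave 1.20 and 1.15 at Hipk3, 1.24 at the Phtf2 body, 0.168 at Hipk2 and, on the other side of 1, 0.303 at Hipk1. By reads, the Hipk3 3′ UTR also fell below the median 3′ UTR, at 0.352 of it. The cause of these shifts was not tested.

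No paired analysis was possible because each table merges its mice, and no replicate was left out for that reason. The intervals cover counting error only. PCR copies are not independent molecules. The WT 3′ UTRs of Hipk3 and Phtf2 had 58 and 19 tags. The libraries hold no measure of transcript level and no library without Mbnl2 was analysed here, so more transcript, more bound Mbnl2 and deeper recovery in the Mbnl1 KO table cannot be told apart.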
